A study of Mus musculus with 3 samples.

Results

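The 10 genes described here encode nuclear subunits of cytochrome c oxidase: Cox4i1, Cox5a, Cox5b, Cox6a1, Cox6b1, Cox6c, Cox7a2, Cox7b, Cox7c and Cox8a. They were chosen by name, as the widely expressed isoforms of these 10 subunits, from the 22367 protein-coding genes of the annotation. The list does not hold every subunit of the enzyme, and Ndufa4 was counted with the other genes below. For each gene the peaks of the ESRRA, or estrogen-related receptor α, were taken whose midpoint lay within 30 kb of any annotated transcript start site of the gene, and genes without such a peak were kept as negatives. By this rule 9 of the 10 genes (90%) had a peak, and 11 of the 1639 peaks of the study were linked to them. Among all protein-coding genes, 1956 (8.75%) had a peak within 30 kb. With a window of 1 kb the same 9 members (90%) had a peak, against 465 (2.08%) of all protein-coding genes. Cox6b1 was the member without a peak in either window. The exact (Clopper-Pearson) 95% interval of 9 of 10 runs from 55.5% to 99.7% and covers counting error over genes alone. The members are a fixed list chosen with earlier results of these data known, so the interval describes the count and tests nothing.

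The study asked whether ESRRA of the intestine has a role in diet-induced obesity. As a part of this, it mapped where this nuclear receptor binds in the intestinal epithelium. The paper joined the binding to RNA-seq of wild-type and Esrra-null epithelium to define target genes, and it names Cox7a2 among them. Those expression data were not used here. Duodenal villus cells of wild-type C57BL/6 mice on regular chow, separated from the crypts by filtration, were cross-linked with disuccinimidyl glutarate and then formaldehyde. Their chromatin was immunoprecipitated with an antibody against ESRRA. The series holds 2 ChIP libraries and 1 library of input chromatin, all of the same genotype (WT) and tissue, with no comparison of treatments or genotypes. The authors merged the reads of both ChIP libraries before they called peaks, and the peak list carries positions only. No value below therefore has a replicate error, a peak height or a p-value, and read depth per library is unknown from this list. Weak and strong peaks therefore carried equal weight. The list holds no expression values, so the labelled cell type could not be checked against its marker genes.

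Cytochrome c oxidase is complex IV of the mitochondrial respiratory chain. It takes electrons from cytochrome c, reduces oxygen to water and pumps protons across the inner membrane. Its catalytic core is encoded by mitochondrial DNA, whereas the surrounding subunits, which stabilise and regulate the core, are encoded in the nucleus and must be imported. ESRRA is a nuclear receptor known for its regulation of genes of mitochondrial energy metabolism. It binds DNA at an extended site, written TCAAGGTCA, whose core is AAGGTCA. Villus enterocytes absorb and process dietary lipid and use mitochondrial respiration for this work.

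The sequences below are the DNA to which the result refers. They are the AAGGTCA matches in the promoter peaks, where a promoter peak is the linked peak within 1 kb of the start site. The capitals mark the 9 bases aligned to TCAAGGTCA, each sequence is written 5′ to 3′ on the strand that reads AAGGTCA, and all coordinates are on mm9. Stretches that hold untranslated exon in any coding transcript are cut to 30 bases.
Cox4i1, chr8:123192353-123192401, minus strand: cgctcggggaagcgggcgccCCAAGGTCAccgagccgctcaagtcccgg
Cox5b, chr1:36748727-36748775, minus strand: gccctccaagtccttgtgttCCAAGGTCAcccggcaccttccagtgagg
Cox6a1, chr5:115798740-115798788, plus strand: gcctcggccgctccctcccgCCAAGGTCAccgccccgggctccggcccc
Cox8a, chr19:7292025-7292054, plus strand: cgaggaccagtCCAAGGTCAgggagtcaag
Cox6c, chr15:35867551-35867580, plus strand: aaacgacccaaTCAAGGTCAacctggccgc
Cox7c, chr13:86185961-86185990, minus strand: cgtcggagatTGAAGGTCAttggaaacaaa
Cox7b, upstream match, chrX:103211791-103211839, minus strand: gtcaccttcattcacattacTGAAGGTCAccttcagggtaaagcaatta
Cox7b, downstream match, chrX:103211816-103211864, minus strand: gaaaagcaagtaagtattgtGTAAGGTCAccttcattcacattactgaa
Cox7a2, chr9:79607287-79607335, plus strand: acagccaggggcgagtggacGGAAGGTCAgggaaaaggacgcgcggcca

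No AAGGTCA lay in the promoter peak of Cox5a, and none lay within 1 kb of the main start site of Cox6b1. For these genes the closest word to TCAAGGTCA is shown in capitals, within the promoter peak for Cox5a and within 1 kb of the main start site for Cox6b1. Differences from TCAAGGTCA are counted from 1 at its 5′ end, with the base of TCAAGGTCA first. The word of Cox5a differed by G5T and that of Cox6b1 by A9C.
Cox5a, chr9:57369564-57369612, minus strand: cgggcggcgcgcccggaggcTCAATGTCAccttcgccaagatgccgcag
Cox6b1, chr7:31410507-31410555, minus strand: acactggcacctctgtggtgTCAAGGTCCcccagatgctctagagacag

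The peaks of the 9 bound members lay close to the start of the gene. The distance from the midpoint of the nearest peak to the nearest annotated start site had a median of 169 bp over these 9 genes and ranged from 58 to 658 bp. Over all 10 members the median was 171 bp, and over all protein-coding genes it was 447845 bp, with quartiles at 139314 and 1197170 bp. The gene with the shortest distance was Cox7c, at 58 bp, and 0.215% of protein-coding genes had a peak at most as near. The 9 bound members thus all lay among the 1.74% of genes nearest to a peak, the share reached at Cox7b. The linking rule had already placed them among the nearest 8.75%, so their rank partly restates that rule. For Cox6b1 the distance was 80517 bp, and 17.1% of genes had a peak at most as near.

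**Figure D1:**
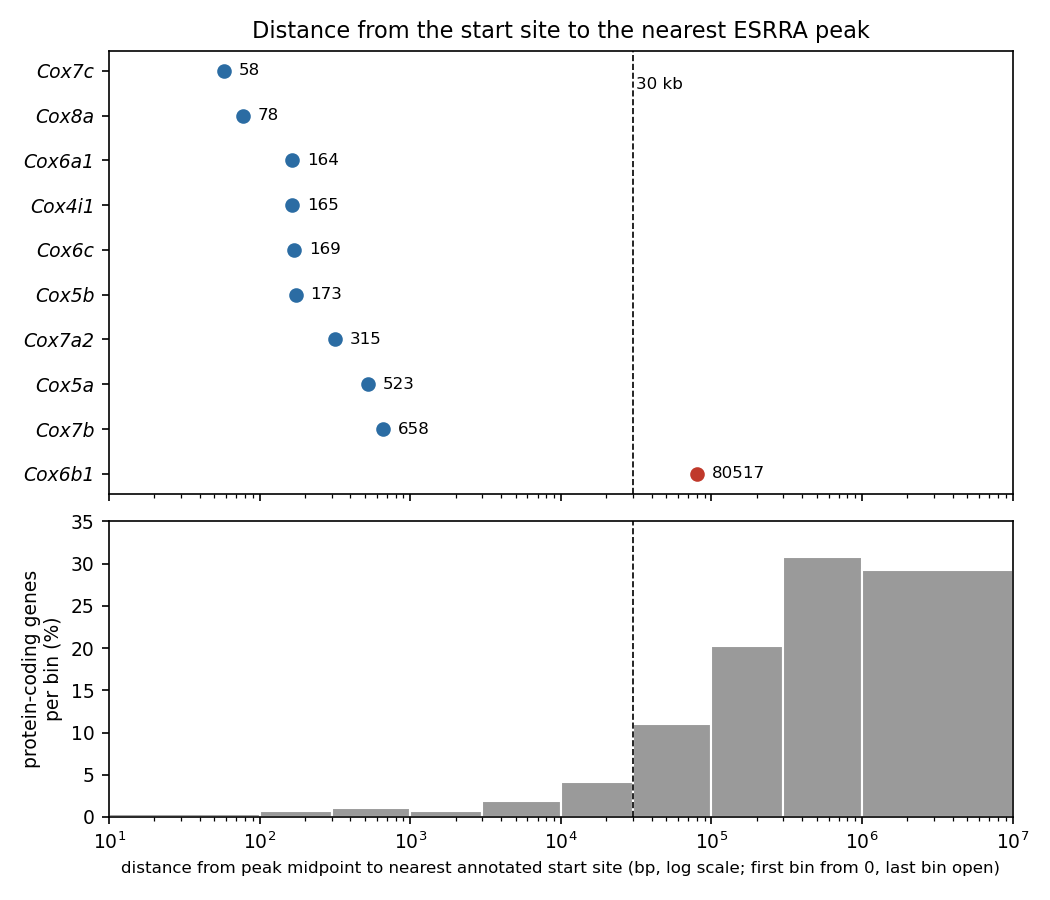
Upper panel: distance in bp (log axis) from each member's nearest annotated start site to the midpoint of the nearest ESRRA peak, 1 point per gene. Lower panel: the share of 22367 protein-coding genes in bins of the same distance. The 9 blue members lie between 58 and 658 bp, and Cox6b1 (red) lies at 80517 bp, beyond the dashed line at 30 kb.

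The members are taken in turn by their place in the enzyme, beginning with the subunits that face the mitochondrial matrix. Cox5b, which binds a zinc ion, had its peak at chr1:36748293-36748893. The midpoint lay 173 bp downstream of the nearer of 2 start sites and 261 bp downstream of the main start site, which is the start used by most coding transcripts or, in a tie, the one farthest upstream. This peak covered both start sites and exon 1. Its AAGGTCA match, CCAAGGTCA (T1C), lay in intron 1, 158 bp from the midpoint and 419 bp from the main start site. A second word with 1 difference, TCAAGGTTA (C8T), lay in the coding part of exon 1, 110 bp from the main start site. A further AAGGTCA, TAAAGGTCA, lay 479 bp upstream of the main start site and outside the peak.

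Cox5a, which joins the enzyme early in assembly together with Cox4i1, had its promoter peak at chr9:57369262-57369862, with the midpoint 523 bp downstream of its single start site. The peak lay wholly in intron 1, which is 7540 bp long and the longest intron 1 among the members. Among the 9 promoter peaks this was the one without AAGGTCA. It held a single AGGTCA, and its closest word, TCAATGTCA, lay 26 bp from the midpoint. The 199 bases around that word are given here in the direction of transcription, with the reverse complement of the word in capitals, because this is the peak without the core sequence.
Cox5a, chr9:57369489-57369687, plus strand: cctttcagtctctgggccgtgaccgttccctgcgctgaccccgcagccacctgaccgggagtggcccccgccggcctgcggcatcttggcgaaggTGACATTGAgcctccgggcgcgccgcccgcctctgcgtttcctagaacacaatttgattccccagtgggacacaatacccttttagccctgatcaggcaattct

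Cox5a was also the member with more than 1 linked peak. A peak at chr9:57385257-57385857 lay 16518 bp downstream of the Cox5a start site, but its nearest start site, at 121 bp, was that of Gm17596, and a start site of 2310046O06Rik also lay within 1 kb. It held no AAGGTCA. A peak at chr9:57397942-57398542 lay 29203 bp downstream and 763 bp from Mpi, which encodes mannose phosphate isomerase. It held CAAAGGTCA (T1C, C2A), 228 bp from its midpoint. Of the 11 linked peaks, these were the 2 whose nearest start site was not that of the member.

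Cox4i1, the largest nuclear-encoded subunit, had its peak at chr8:123192055-123192655, with the midpoint 165 bp downstream of its single start site. This peak covered the start site, and at 73.0% it had the highest GC content of the 9 promoter peaks. CCAAGGTCA (T1C) lay 22 bp from the midpoint, in intron 1, 187 bp from the start site. It was also the promoter peak with another protein-coding start site within 1 kb: Cox4nb is transcribed in the opposite direction from a start 178 bp away, and its start lay 343 bp from the midpoint. Binding that serves Cox4i1 and binding that serves Cox4nb cannot be told apart from this list.

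Cox6a1, Cox7a2 and Cox8a are the isoforms found in most tissues, each with a counterpart known from heart and skeletal muscle. The Cox6a1 peak, at chr5:115798459-115799059, had its midpoint 164 bp downstream of the nearer start site and 231 bp downstream of the main one. CCAAGGTCA (T1C) lay 5 bp from the midpoint, the smallest offset among the members, and 226 bp from the main start site. It fell in intron 1 of the main transcript and in an exon of 1 of 2 transcripts. This intron, at 131 bp, was the shortest intron 1 of the 10 genes and lies between exons that the peak also covered. The 199 bases around the site are given in the direction of transcription, with the reverse complement of the word in capitals.
Cox6a1, chr5:115798665-115798863, minus strand: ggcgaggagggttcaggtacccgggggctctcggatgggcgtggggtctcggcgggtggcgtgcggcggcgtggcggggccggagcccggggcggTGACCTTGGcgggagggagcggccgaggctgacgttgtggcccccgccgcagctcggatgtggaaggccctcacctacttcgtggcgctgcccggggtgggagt

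The Cox7a2 peak lay at chr9:79607045-79607645, with the midpoint 315 bp downstream of the single start site. GGAAGGTCA (T1G, C2G) lay 34 bp from the midpoint and 349 bp from the start site, in intron 1. Across all single-copy peaks this word made up 3.61% of AAGGTCA matches. Cox7a2 was the member whose promoter peak held no word within 1 difference of TCAAGGTCA. Its 3 closest words had 2 differences and included CCAAGGTGA (T1C, C8G), 8 bp from the midpoint. A peak is called single-copy where its 24-base words have a median of at most 10 copies in the genome, and 1315 of the 1639 peaks were single-copy. The next peak lay 1584069 bp from that of Cox7a2. The Cox8a peak lay at chr19:7291728-7292328 and covered its single start site, with the midpoint 78 bp downstream. CCAAGGTCA (T1C) lay 12 bp from the midpoint, in the 5′ UTR part of exon 1, 66 bp from the start site. Cox8a also had a full TCAAGGTCA 831 bp upstream of its start site, 909 bp from the midpoint, and that site lay in no peak.

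Cox6c, Cox7b and Cox7c are small subunits with a single membrane-spanning helix. The Cox6c peak, at chr15:35867295-35867895, held TCAAGGTCA, the single full match among the 9 promoter peaks. It lay 29 bp from the midpoint. Cox6c has 5 annotated start sites, of which 2 fell in the peak. The midpoint lay 169 bp downstream of the nearest and 406 bp downstream of the main start site, so that the match stood 435 bp from the latter, in intron 1 of the main transcript and in an exon of 2 of 5 transcripts. A second AAGGTCA, GCAAGGTCA, lay at 841 bp downstream, outside the peak.

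The Cox7b peak, at chrX:103211413-103212013, was the farthest from its gene's start among the 9, with the midpoint 658 bp downstream of the nearest and 674 bp downstream of the main start site. It also had the lowest GC content, 36.3%. It was the promoter peak with 2 matches, TGAAGGTCA (C2G) and GTAAGGTCA (T1G, C2T), 776 and 801 bp downstream of the main start site and on the same strand. Each was followed by ccttca. Among single-copy peaks within 1 kb of a protein-coding start site, 12.7% held 2 or more AAGGTCA. The closest words to TCAAGGTCA in this peak included TCATGGTCA (A4T), 28 bp from the midpoint, whereas the AAGGTCA matches lay 102 and 127 bp from it. The 199 bases around the upstream match are given in the direction of transcription, with the reverse complement of TGAAGGTCA in capitals. The downstream match follows in lower case.
Cox7b, chrX:103211716-103211914, plus strand: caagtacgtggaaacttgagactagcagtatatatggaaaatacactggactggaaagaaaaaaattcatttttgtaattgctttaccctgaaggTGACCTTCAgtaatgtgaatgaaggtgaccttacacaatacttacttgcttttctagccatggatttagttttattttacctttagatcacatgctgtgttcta

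The Cox7c peak, at chr13:86185823-86186423, covered 3 of 4 annotated start sites of its gene. Its midpoint lay 58 bp upstream of the nearest start site and 386 bp downstream of the main one. TGAAGGTCA (C2G) lay 147 bp from the midpoint, 533 bp downstream of the main start site and 89 bp downstream of the start at 86186065. It fell in intron 1 of the main transcript and in an untranslated exon of 1 of 4 transcripts. The next peak lay 8190674 bp away, the largest such distance among the 9 promoter peaks.

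Cox6b1 faces the intermembrane space, where cytochrome c docks, and is the member without a peak. Its start site lies at chr7:31411170 on the minus strand. The nearest peaks lay 80517 bp to one side, with Gm4883 as the gene nearest to that peak and 5 protein-coding genes between, and 441962 bp to the other, with 29 protein-coding genes between. The latter is the peak of Cox7a1. Cox6b1 had no AAGGTCA within 1 kb of its start site. Its closest word there, TCAAGGTCC, lay 639 bp downstream in intron 1. Farther into the same intron, at about 1178 bp, Cox6b1 had an AAGGTCA that lay in no peak. Within 30 kb it had 2 full TCAAGGTCA sites, in no peak. Of the 24-base words within 1 kb of its start, 88.7% occurred once in the genome, within the range of the other members, which ran from 84.4% (Cox7b) to 99.0% (Cox7a2). A peak present in the cells but under the calling threshold could not be told apart from no peak in this list.

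**Figure D2:**
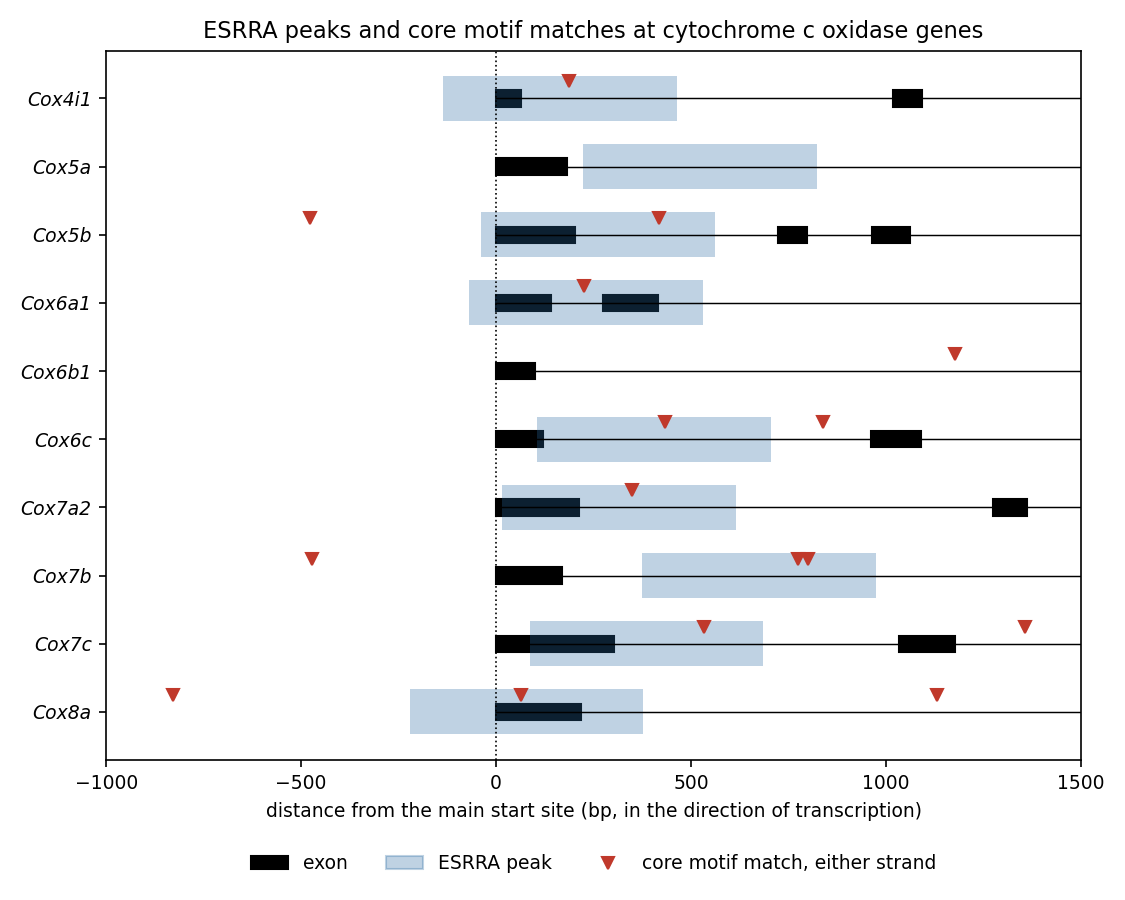
Exons (black), ESRRA peaks (blue, each 601 bp wide) and matches of AAGGTCA on either strand (red) from 1000 bp upstream to 1500 bp downstream of the main start site of each member, drawn in the direction of transcription. All 9 peak midpoints lie downstream of the dotted line, 8 of them in intron 1 of the main transcript, and no peak is present at Cox6b1.

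The promoter peaks shared a position that the linking rule did not use. Measured from the main start site, all 9 midpoints lay downstream, at a median of 315 bp. This measure was not taken for other peaks. At Cox5b, Cox6c and Cox7c coding start sites tied and the one farthest upstream was used, which favours a downstream position. By the nearest annotated start site, 8 of 9 (88.9%) lay downstream, against 271 of 424 (63.9%) single-copy peaks within 1 kb of a start site of a protein-coding gene, without 2 peaks whose midpoint fell on the start site itself. The median of those 424 was 142 bp downstream, and that of the members was 169 bp. In the main transcript, 8 of the 9 midpoints fell in intron 1 and that of Cox8a in exon 1. Those of Cox6a1 and Cox6c were in an exon of another transcript. The share in intron 1 was not counted for other single-copy peaks. The peaks of Cox4i1, Cox5b, Cox6a1 and Cox8a covered the main start site and the other 5 did not. In all 9 the nearest annotated start site of any gene was the member's own. Of the 9, 8 had no other peak within 30 kb, and Cox5a had 2, at 15995 and 28680 bp. All 9 were single-copy. Their median GC content was 61.2%, compared with 57.1% for single-copy peaks near protein-coding start sites, and whether base composition had a part in these values was not tested.

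The core AAGGTCA was in 8 of the 9 promoter peaks (88.9%). It was in 230 of 426 (54.0%) single-copy peaks within 1 kb of a protein-coding start site, in 676 of 1315 (51.4%) single-copy peaks, and in 112 of 824 (13.6%) windows of the same width 2 kb away from the former. Over all 11 linked peaks the count was 9 (81.8%). The full site showed another order, with TCAAGGTCA in 1 of 9 (11.1%), against 78 of 426 (18.3%) near start sites and 1.58% of their flanking windows. TNAAGGTCA was in 3 of 9 (33.3%), against 24.9%. The shorter AGGTCA, which every AAGGTCA contains, was in 9 of 9, against 71.8%. With at most 1 difference from TCAAGGTCA anywhere, 8 of 9 peaks held a word, against 57.5%. These are shares of few peaks, and no test was made of them.

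Because the search fixed the core, the matches could differ from TCAAGGTCA only in the bases before it. Of the members' 9 matches, 4 were CCAAGGTCA (T1C), at Cox4i1, Cox5b, Cox6a1 and Cox8a. This word made up 77 of 294 matches (26.2%) in single-copy peaks near protein-coding start sites and 189 of 996 (19%) in all single-copy peaks. TCAAGGTCA made up 28.6% and 32.0% of the same matches and was found at 1 member, Cox6c. TGAAGGTCA, found at Cox7b and Cox7c, made up 8.16% and 8.03%. The bases after the core were compared after the sequences above had been seen. The core was followed by CC, as AAGGTCACC, in 5 of the 9 matches, those of Cox4i1, Cox5b and Cox6a1 and both of Cox7b, against 42 of 294 (14.3%) near start sites and 119 of 996 (11.9%) in all single-copy peaks. The word at Cox5a, TCAATGTCA, was also followed by CC.

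The side and strand of the matches were counted next. All 9 were downstream of the main start site, 8 of them in intron 1 of the main transcript. Neither share was counted for other peaks. Measured from the annotated start site nearest to the peak midpoint, 9 of 9 were downstream, against 171 of 294 (58.2%) in single-copy peaks near protein-coding start sites. Measured from the start site nearest to the match itself, 7 of 9 (77.8%) were downstream, against 169 of 294 (57.5%), since those of Cox6c and Cox7c lay just upstream of another start site of their gene. In 8 of 9 (88.9%) the strand that read AAGGTCA was opposite to the direction of transcription, with Cox7c as the exception, against 141 of 294 (48.0%). Both matches of Cox7b, which lie in the same peak, are among the 8. The matches are few, and the difference was not tested. Of the 9 matches, 5 lay within 50 bp of the midpoint, at Cox4i1, Cox6a1, Cox6c, Cox7a2 and Cox8a, and the same 5 were all that lay within 100 bp. A match within 100 bp of the midpoint was found in 5 of 9 peaks (55.6%), against 36.2% of single-copy peaks near protein-coding start sites. At Cox5b, Cox7b and Cox7c the matches lay 102 to 158 bp away.

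**Figure D3:**
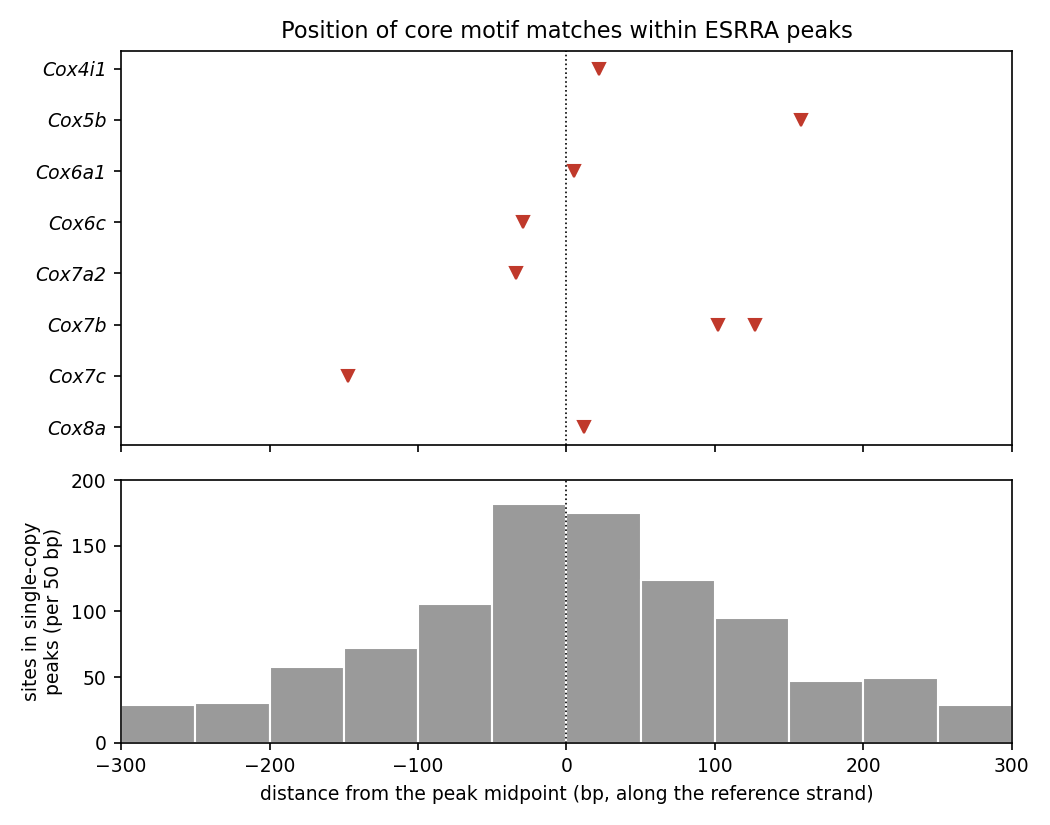
Position of each AAGGTCA match relative to the peak midpoint, in bp along the reference strand. Upper panel: the 9 matches in promoter peaks of 8 members. Lower panel: number of matches per 50 bp in single-copy peaks, 182 and 175 of which lie in the 50 bp on either side of the midpoint. The members' matches lie 5 to 158 bp from it.

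Most AAGGTCA near start sites had no peak. Over all protein-coding genes, 6563 (29.3%) had AAGGTCA within 1 kb of the main start site, and 4.24% of these had a peak within 1 kb, compared with 1.18% of genes without it. Among the members 8 of 10 had such a match, all but Cox5a and Cox6b1, and all 8 had a peak. They held 13 matches within 1 kb, of which 9 lay in a peak. The remaining 4 were the matches of Cox5b, Cox6c and Cox8a outside their peaks, given above, and AAAAGGTCA of Cox7b, 474 bp upstream of its main start site. The full TCAAGGTCA occurred 28 times within 30 kb of the main start sites of 9 members, from 1 at Cox7a2 to 6 at Cox7b and none at Cox5b, and 1 of the 28, at Cox6c, lay in a peak. Across the genome 320 of 56720 TCAAGGTCA (0.564%) lay in a peak, as did 191 of 36740 CCAAGGTCA (0.52%).

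Promoters were then searched for sites of other factors known at genes of the respiratory chain. In the window from 250 bases before to 50 after the main start site, neither AAGGTCA nor TCAAGGTCA occurred at any member, against 3.93% and 0.353% of all protein-coding promoters, so every match described above lay farther into the gene or farther upstream. With 10 members, a count of 0 cannot be told apart from shares this low. In a window of 500 bases on each side, AAGGTCA was at 7 of 10 members (70%) against 14.2% of all promoters. At Cox7b the match in this window was the one 474 bp upstream, outside the peak. The peak match of Cox7c, at 533 bp, lay beyond the window. TCAAGGTCA was at 1 of 10 (10%) against 1.65%. CCGGAAGT, bound by the ETS family that includes NRF2/GABP, occurred at Cox8a (4.79% of all promoters). GCATGCGC, a part of the NRF1 site, occurred at Cox6a1 (3.31%), as overlapping matches on opposite strands. GGGCGG, of the SP family, occurred at Cox4i1, Cox5a, Cox6a1 and Cox7a2 (43.9%), with 9 matches at Cox4i1. CCAAT, of NF-Y, occurred at Cox6a1, Cox6b1, Cox7b and Cox8a (37.8%), and in Cox6b1 it was found 3 times. AAGATGGCG (YY1) and TGACGTCA (CREB) occurred at no member, against 1.86% and 2.3%. All searches covered both strands. Promoter GC content ranged from 38.0% at Cox6c to 75.3% at Cox4i1, with a median of 56.3% against 55.3% for all promoters, and Cox6b1 was at 53.0%.

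Within the 9 promoter peaks themselves, CCGGAAGT was found in 2 (22.2%), against 7.04% of single-copy peaks near protein-coding start sites. GGGCGG was found in 7 (77.8%), against 55.4%. CCAAT was found in 5 (55.6%), against 46.9%. TGACGTCA was found in 1 (11.1%), against 2.58%. GCATGCGC and AAGATGGCG were found in none, against 3.05% and 5.4%. These letters mark possible sites and say nothing of which factors were bound.

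Other genes of cytochrome c oxidase were counted in the same way. Among 9 other isoforms and subunits, which include the muscle and testis isoforms and the subunit Ndufa4, 3 (33.3%) had a peak within 30 kb and 1 (11.1%) within 1 kb. The latter was Cox7a1, the heart and skeletal muscle counterpart of Cox7a2, with a peak midpoint 18 bp downstream of its start site and no AAGGTCA in the peak. Cox4i2 lay 16578 bp from a peak whose nearest gene was Id1. Cox8b lay 19566 bp from the nearest of 3 peaks, and Nlrp6 was the gene nearest to it. Ndufa4 lay 1138639 bp from the nearest peak.

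Of 18 assembly and copper delivery factors, 7 (38.9%) had a peak within 30 kb and 3 (16.7%) within 1 kb. Cox10, which makes heme O for the heme A of the enzyme, had a midpoint 172 bp downstream of its start site and TAAAGGTCA in the peak. Cox11, which takes part in copper insertion, had its midpoint 367 bp downstream with CCAAGGTCA. Cox20, annotated as Fam36a, lay 540 bp from a midpoint upstream of it with TCAAGGTCA, and the start site nearest to that peak, at 41 bp, was that of B230369F24Rik. Coa5, annotated as 6330578E17Rik, Cox19, Sco1 and Sco2 lay 4734, 7784, 16312 and 27526 bp from a peak whose nearest gene was another.

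Beside the other complexes of oxidative phosphorylation, the members had a peak within 1 kb in 9 of 10 genes. This held for 14 of 36 complex I subunits (38.9%), 2 of 4 complex II subunits (50.0%), 7 of 10 genes of complex III and cytochrome c (70.0%) and 11 of 17 ATP synthase genes (64.7%). The ATP synthase list held every gene whose symbol starts with Atp5. It includes Atp5s and Atp5sl, both without a peak within 30 kb, so its share depends on that choice. The share of the members likewise depends on leaving out Ndufa4, which had no peak within 30 kb. The other complexes together gave 34 of 67 genes (50.7%) within 1 kb and 37 of 67 (55.2%) within 30 kb. Of the genes with a peak within 1 kb, 8 of 9 members had it downstream of the nearest start site, as did 10 of 11 ATP synthase genes, 2 of 2 of complex II, 10 of 14 of complex I and 4 of 7 of complex III and cytochrome c. AAGGTCA was in the peak of 8 of 9 members (88.9%), 9 of 11 ATP synthase genes (81.8%), 2 of 2 of complex II, 5 of 7 of complex III and cytochrome c (71.4%) and 7 of 14 of complex I (50.0%). The members' downstream and AAGGTCA shares were thus near those of the ATP synthase genes. Their share with a peak within 1 kb was 90%, against 64.7%. With 10 members the counts differ by few genes, and the difference between complexes was not tested.

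**Figure D4:**
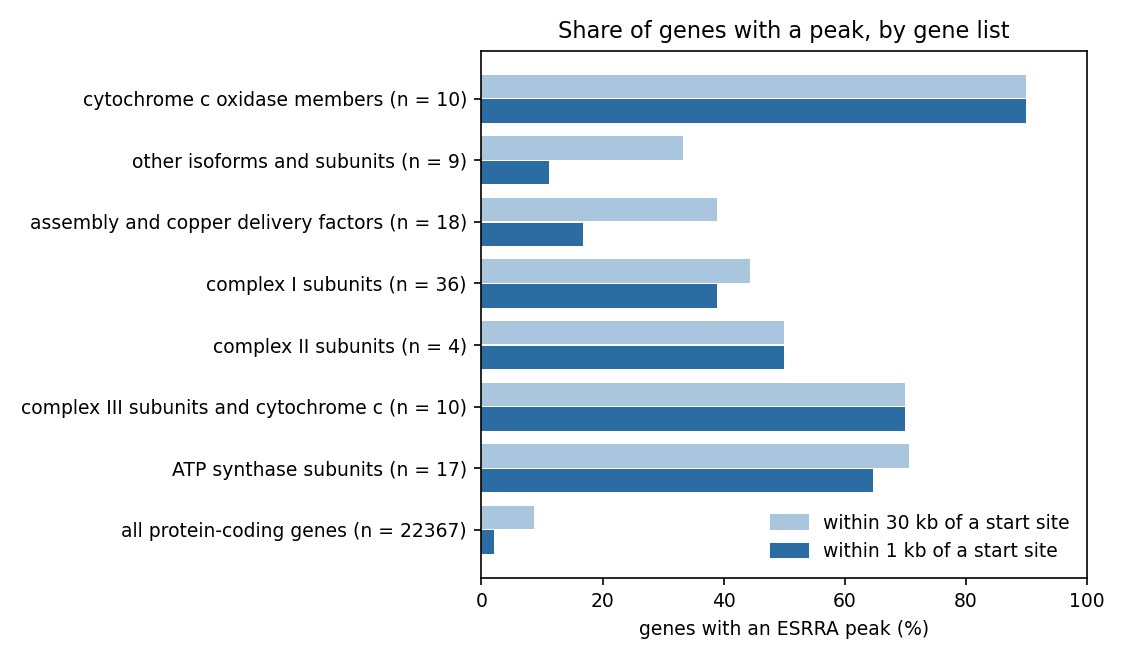
Share of genes (%) with an ESRRA peak midpoint within 30 kb (light) and within 1 kb (dark) of an annotated start site, for the members, other cytochrome c oxidase genes, the other respiratory complexes and all protein-coding genes, with the number of genes in each list. The members stand at 90% on both measures and all protein-coding genes at 8.75% and 2.08%.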

How the data were processed

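The deposited data were the start and end of each ESRRA peak in bp, without a score. Per the paper's methods and the labels, the authors aligned paired-end reads to mm9 with Bowtie2 2.2.6, merged the replicates of the ChIP with SAMtools 0.1.19 and ran MACS2 on the result (p below 1e-05). How every peak came to be 601 bp wide is not given in the sources used here. Calling on merged reads hides peaks of 1 library alone.

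Peaks were placed on the NCBI build 37 (mm9) sequence with GENCODE M1 start sites, using Python 3.11.15, numpy 2.4.6, numba 0.67.0 and scipy 1.17.1. Coordinates are counted from 1. Motifs were matched exactly on both strands, and copy number was counted for 24-base words. Flanking windows touching another peak or an assembly gap were left out. The functions were tested on simulated data.

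The named genes were all 10 members, every gene of the other lists with a peak within 30 kb (given by count for the other respiratory complexes), and the genes nearest to these peaks. Atp5s, Atp5sl and Ndufa4 were named to show how the ATP synthase list and the list of members were made. Members and lists were chosen with earlier results of these data known, so shares are descriptions beside the same share over all genes or peaks. Coa7 was not matched in the annotation.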

Additional observations from a re-analysis of the deposited data

How the results depend on the processing

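Of 93 alternative values, 70 stayed close to the value reported, and 9 members had a peak at every window from 1 to 30 kb. A ratio of 1.5 to the reported value marked a value as moved. Of the 63 alternatives for main results, 20 moved, and the others of the 93 were distances of single members. The count of protein-coding genes with a peak moved from 1956 to 465, 755, 1038 and 4423 with windows of 1, 5, 10 and 100 kb and to 888 with the nearest start site only. The 10 other cytochrome c oxidase genes became 4, 5 and 6 at 1, 5 and 10 kb and 3 with the nearest start site only. Of 9 linked peaks with AAGGTCA, 1 held TCAAGGTCA, 3 held TNAAGGTCA and 5 had AAGGTCA within 100 bp of the midpoint. The median distance of 171 bp became 350.5 bp from main start sites. With promoters of 500 bases on each side and the share of all promoters in brackets, TCAAGGTCA was found at 1 member (1.65%), AAGGTCA at 7 (14.2%), CCGGAAGT at 3 (6.96%), GCATGCGC at 2 (5.14%), GGGCGG at 7 (59.9%), TGACGTCA at 1 (3.18%) and CCAAT at 7 (70.4%). AAGGTCA thus went from no member, against 3.93% of all promoters, to above the share of all promoters, and CCAAT stood at that share. With 10 members, a count of 0 cannot be told apart from 3.93%. The alternatives for the other respiratory complexes and the count of CC after the core were chosen after seeing the data. No paired analysis was possible because the peaks were called on merged replicates. Leaving out a replicate and a stricter peak threshold were not run, since the list holds no value per replicate and no score. Depth and replicate error are therefore unknown from this list, and a missing peak, as at Cox6b1, may lie under the threshold.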
